A study of Mus musculus with 55 samples.

Results

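Rbp7 and 8 further genes that carry, store, convert or sense vitamin A were followed in the lungs of mice on a pair of laboratory diets. The 9 genes were Rbp7, Rbp4, Stra6, Lrat, Dhrs3, Aldh1a1, Crabp1, Cyp26b1 and Rarb. They were selected with earlier results of these data in view, and Rbp7 was selected on its diet difference, so its levels by diet are given as a description. They are read by 10 of the 45037 probe sets on the array, those whose annotation carries only that one symbol, which is 9 of 18193 genes so covered. Lrat has 2 such probe sets and is given by the brighter one.

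All mice were male and labelled C57BL/6 (C57BL/6J in the methods of the study), came onto their diet at 6 weeks of age and had 2 weeks on it before treatment. The diets were AIN-76A, a semipurified diet of defined composition, and LRD-5001, a laboratory rodent chow. Chronic mice were kept for 5 weeks without added arsenite (5 AIN, 4 LRD), with sodium arsenite at 10 ppb in repelleted food (5 AIN, 5 LRD), or with sodium arsenite in drinking water at 10 ppb (4 AIN, 4 LRD) or 100 ppb (3 AIN, 3 LRD). A further 19 mice, all on AIN-76A, were studied 8 hours after an intraperitoneal injection of saline (5 mice), of dexamethasone, a synthetic glucocorticoid, at 1 mg/kg (5), of arsenite at 1 mg/kg (4), or of both (5). Each lung was hybridised to its own array, and 3 of the 55 arrays (AIN 100 ppb water replicate B, LRD 10 ppb water replicate C and arsenite injection replicate E) were set aside by the rule that defined the gene set. Their log2 values had an SD of 1.893, 2.234 and 1.186 against 2.297 to 2.421 in the other 52.

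The values are log2 intensities after robust multiarray averaging (RMA), on which a difference of 1 is a 2-fold difference. Means are given with the SD over mice. Lists of markers of the alveolar epithelium were high on every array (type II cells 11.84 to 12.9, type I cells 11.21 to 11.99). Markers of other tissues were high on some arrays. In 10 of 52 the mean of a liver, skeletal muscle, thymus or adipocyte list was above 7, and these include LRD control replicate A (liver list 11.03), AIN 10 ppb water replicates A (skeletal muscle 10.1, adipocyte 8.73) and E (thymus 9.79), and saline replicates D and E. In whole lung, fewer cells of a type and less RNA per cell cannot be told apart.

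Retinol is carried in blood by Rbp4 together with transthyretin, and Stra6 is a membrane receptor that lets it into cells. Inside, cellular retinol binding proteins hold it, among them Rbp7, which is known from fat and from the endothelium of some tissues, and Lrat turns it into retinyl esters, the storage form, of which the lung keeps a pool in lipid-laden fibroblasts. Oxidation to retinal and then, by Aldh1a1 and its relatives, to retinoic acid makes the active hormone, while Dhrs3 reduces retinal back to retinol. Crabp1 binds retinoic acid, Cyp26b1 degrades it, and Rarb is one of the nuclear receptors it activates. Genes of storage, removal and reception (Lrat, Cyp26b1, Dhrs3, Rarb) are well known to be induced by retinoic acid itself.

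The promoters shown are those of Rbp7, which carried the diet difference, and of Rarb, Cyp26b1 and Lrat, which varied together from mouse to mouse. Each is the 250 bases before the RefSeq transcript start on build GRCm38.p6, read on the strand of the gene, which is the minus strand for all of them. They lie at chr4:149454969-149455218 for Rbp7, chr14:16575477-16575726 for Rarb, chr6:84593811-84594060 for Cyp26b1 and chr3:82903975-82904224 for Lrat. Capitals mark, on either strand, the hexamer AGGTCA, its variant with a T inside, AGTTCA, the variant that opens with a further G, GGGTCA, and the one that combines both changes, GGTTCA. Retinoic acid receptors are known to bind such letters as spaced repeats.
Rbp7: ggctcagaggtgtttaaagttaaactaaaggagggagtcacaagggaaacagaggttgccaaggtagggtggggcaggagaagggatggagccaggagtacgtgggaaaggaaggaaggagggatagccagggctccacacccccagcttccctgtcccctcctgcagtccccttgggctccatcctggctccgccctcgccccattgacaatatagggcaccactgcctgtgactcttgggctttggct
Rarb: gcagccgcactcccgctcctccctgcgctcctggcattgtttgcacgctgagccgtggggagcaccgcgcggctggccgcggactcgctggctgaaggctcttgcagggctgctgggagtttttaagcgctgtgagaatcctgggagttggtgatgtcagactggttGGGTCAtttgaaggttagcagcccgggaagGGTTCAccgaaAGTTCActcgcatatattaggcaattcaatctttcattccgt
Cyp26b1: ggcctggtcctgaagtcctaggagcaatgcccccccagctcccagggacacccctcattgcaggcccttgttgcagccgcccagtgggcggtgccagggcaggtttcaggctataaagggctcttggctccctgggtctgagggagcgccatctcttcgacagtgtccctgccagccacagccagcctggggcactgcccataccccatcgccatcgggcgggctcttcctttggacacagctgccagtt
Lrat: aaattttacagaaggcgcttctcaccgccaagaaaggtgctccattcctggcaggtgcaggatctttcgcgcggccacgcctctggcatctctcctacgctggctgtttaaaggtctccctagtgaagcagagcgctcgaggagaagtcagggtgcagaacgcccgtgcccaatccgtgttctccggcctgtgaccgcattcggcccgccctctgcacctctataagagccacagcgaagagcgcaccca

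The Rarb window held 3 of these hexamers, and the pair at -53 to -37 from the start formed a direct repeat with a spacer of 5 bases. Such a repeat was found in 29 of 32851 promoter windows of this length (0.0883%), and a single hexamer in 38.6% of them. The windows of Rbp7, Cyp26b1 and Lrat held none of the 4 hexamers. Of the other genes, all of which had at least 1 window (16 windows for the 9 genes), a hexamer stood in 1 window of Rbp4 and 1 of Aldh1a1, and no direct repeat with a spacer of 1, 2 or 5 bases was found outside Rarb. A match describes the letters only, and binding was not measured here.

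Rbp7 stood in a pair of ranges that did not meet. In the LRD groups the control mice measured 7.68, 7.81, 7.7 and 7.38, the food group 7.87, 7.86, 7.05, 7.64 and 7.84, the 10 ppb water group 7.76, 7.98, 7.62 and 7.63, and the 100 ppb water group 7.21, 7.96 and 7.64. In the AIN groups the control mice measured 3.91, 3.33, 3.32, 3.81 and 3.45, the food group 3.4, 3.32, 3.33, 3.56 and 3.46, the 10 ppb water group 4.97, 3.66, 3.69 and 3.89, and the 100 ppb water group 3.39, 4.08 and 3.67. Every LRD mouse was above every AIN mouse, the lowest LRD value being 7.05 and the highest AIN value 4.97. The 19 injected AIN mice lay between 2.96 and 4.4, within or below the range of the uninjected AIN mice. Among the values of its own array, Rbp7 ranked between the 76.6th and 84.0th percentile in LRD lungs and between the 16.7th and 56.7th in AIN lungs, so in AIN lungs it was among the dim probe sets. The table has no detection calls, and whether the AIN level is above background cannot be read from it.

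**Figure D1:**
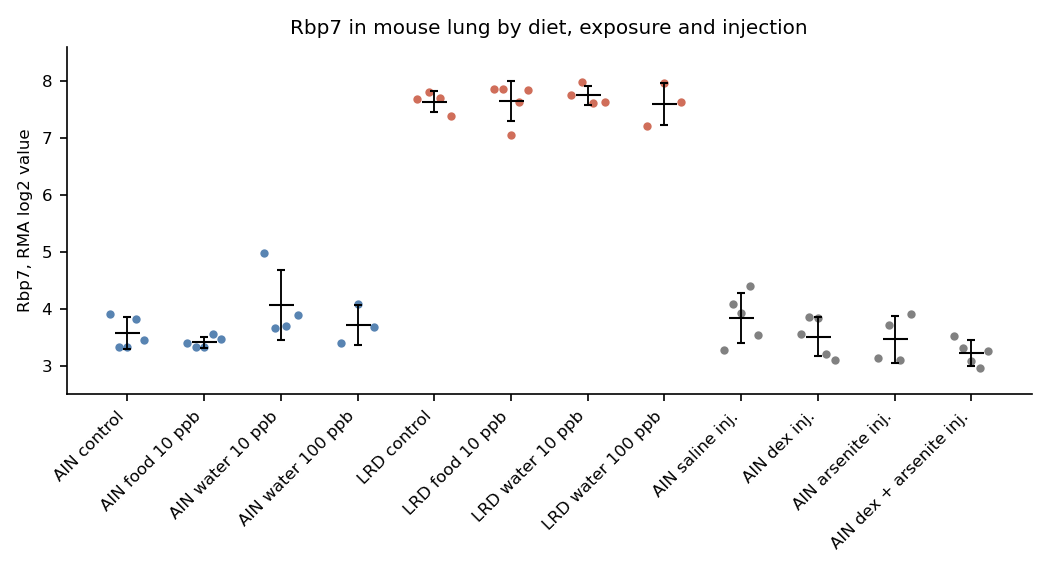
Rbp7 log2 value (RMA) for each mouse in the 12 groups, with the group mean and SD as bars. The 16 LRD mice lie between 7.05 and 7.98, and the 36 AIN mice, chronic and injected, between 2.96 and 4.97.

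The mean difference between diets, each exposure weighted equally, was 3.98 ± 0.12 (SE) on the log2 scale, which is 15.7-fold on the RMA scale. Exposure by exposure it was 4.08 (controls), 4.24 (food), 3.69 (water at 10 ppb) and 3.89 (water at 100 ppb). Arrays fall into 5 batches of 11 by the prefix of the raw array file name, whose meaning is not given in the sources used here. The difference was 3.72, 3.95, 3.78, 4.45 and 4.21 within these batches, and each batch held mice of both diets. Without the 10 arrays with markers of other tissues it was 4.07. It was the largest diet difference but 1 of all probe sets, after that of Cyp1a1 (5.32), the cytochrome induced through the aryl hydrocarbon receptor. The array set aside from the LRD 10 ppb water group read 8.04, and those set aside from the AIN groups 3.62 and 4.36.

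Ordered by group mean, the LRD groups came first, with 7.75 ± 0.17 at 10 ppb in water (SD, n = 4), 7.65 ± 0.35 at 10 ppb in food (n = 5), 7.64 ± 0.18 in controls (n = 4) and 7.60 ± 0.37 at 100 ppb in water (n = 3). The AIN groups followed at 4.06 ± 0.62 (10 ppb water, n = 4), 3.84 ± 0.44 (saline, n = 5), 3.71 ± 0.35 (100 ppb water, n = 3), 3.57 ± 0.28 (control, n = 5), 3.51 ± 0.35 (dexamethasone, n = 5), 3.46 ± 0.41 (arsenite injection, n = 4), 3.41 ± 0.10 (10 ppb food, n = 5) and 3.22 ± 0.22 (dexamethasone and arsenite, n = 5). The within-group SD was 0.34. Neighbours in this order differed by less than that everywhere except between the LRD and the AIN groups. The AIN 10 ppb water mean rests on replicate A (4.97), the mouse with the highest adipocyte list of all (8.73), while the other mice of that group lay between 3.66 and 3.89.

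Within groups, the deviation of Rbp7 from its group mean went with that of the adipocyte marker list, with Pearson r = 0.59 (permutation p = 0.00089, adjusted p = 0.0425 over 117 pairs of a gene and a list) and Spearman rho = 0.49 (permutation p = 0.00258, adjusted p = 0.101) over 52 mice. Leaving out the 2 mice farthest out in Rbp7 gave r = 0.55, and the 2 farthest out in the list gave 0.45. Within the 5 batches r was 0.60, 0.08, 0.65, 0.80 and 0.65. The list itself spanned 4.34 to 6.48 in chronic LRD mice and 4.43 to 8.73 in chronic AIN mice, with a mean LRD minus AIN difference of -0.01. Against type II cell markers the deviations ran the other way (r = -0.47, permutation p = 0.0124, adjusted p = 0.146, and rho = -0.53, permutation p = 0.00071, adjusted p = 0.0415). Within batches this r was -0.46, 0.08, -0.75, -0.78 and -0.48. Type I cell markers (r = -0.44, permutation p = 0.0233, adjusted p = 0.21) and endothelial markers (r = -0.37, permutation p = 0.106, adjusted p = 0.428) also ran against Rbp7. The skeletal muscle list ran with it (r = 0.44, permutation p = 0.0172, adjusted p = 0.183). None of these passed. With the airway secretory and ciliated lists r was 0.07 and 0.01.

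Over the 52 arrays, the genes whose profile was most like that of Rbp7 among 9509 genes with a mean of at least 6 were Tmem88 (r = 0.79), Dbp and Sfrp2 (both 0.72), Slc45a4 (0.72), Nr1d2 and Fads2 (both 0.71), Sulf1 (0.69), Psen2 (0.68), Plekha6 (0.66) and Fkbp11 (0.65). Dbp and Nr1d2 are clock-controlled transcription factors, Fads2 is a fatty acid desaturase, and Sfrp2 is a secreted modulator of Wnt signals. These correlations follow the diet. Inside the groups the same genes had r between -0.13 and 0.16 with Rbp7. Their LRD minus AIN differences ran from 0.29 (Plekha6) to 1.22 (Dbp), against 3.98 for Rbp7, and their ranges in the diets overlapped, as in Tmem88, a transmembrane protein, with 6.87 to 7.89 on AIN and 7.82 to 8.34 on LRD. Rbp7 itself had a mean of 4.84 over the 52 arrays, below the limit of 6. Genes with a mean that low were not searched, so whether any of them is closer to Rbp7 was not tested.

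Of the 9 genes, Rbp7 was the only one past an adjusted p of 0.05 between diets (limma over all probe sets, Benjamini-Hochberg). In that comparison 69 of 45037 probe sets passed, which is 0.153%, with 64 higher and 5 lower on LRD. In the control mice alone, which are part of that comparison, Rbp7 was the only one of the 9, where 6 probe sets passed, or 0.0133%. Since the genes were selected with these results known, nothing is read from these counts or from the Rbp7 calls. The median difference of the 9 genes was 0.13, against 0.002 over all probe sets.

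**Figure D2:**
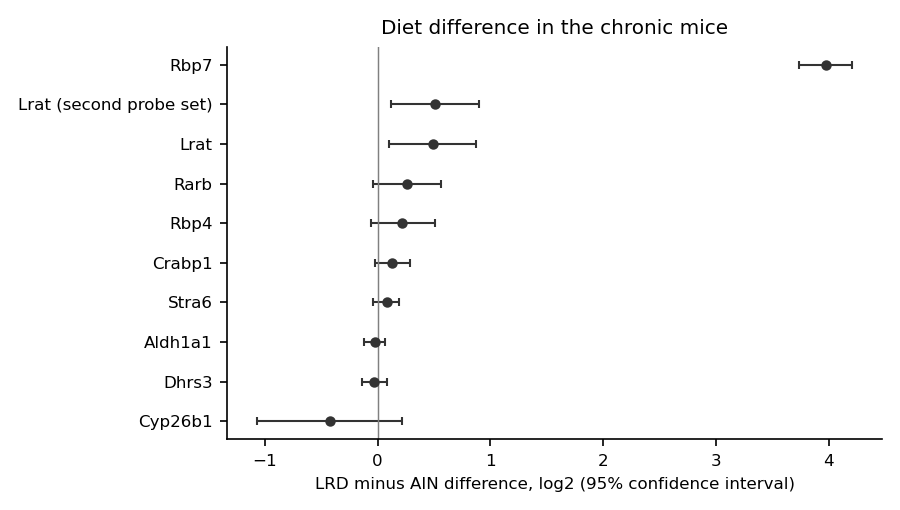
LRD minus AIN difference (log2) of each probe set in the chronic mice, with its 95% confidence interval from limma. Rbp7 lies at 3.98, and the other probe sets lie between -0.42 and 0.51.

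Of the genes of retinol supply, Rbp4 gave 0.22 on the log2 scale (95% interval -0.06 to 0.51), and most of that came from 1 array. The LRD control mice measured 10.62, 8.4, 8.55 and 8.7, against 8.66, 8.51, 8.29, 7.82 and 8.13 in AIN controls. Replicate A, at 10.62, stood well above the next mouse, and it is the array with the liver list at 11.03, where the next highest array of the series had 8.84. The same array also had the highest heart muscle list of the 52 (11.72). Rbp4 and its partner transthyretin are known to be made in bulk by liver, and the part of other tissue in this Rbp4 value was not tested. In the control mice the Rbp4 difference was 0.79 with that array and 0.27 without it, and over the chronic mice 0.22 and 0.10. Across all groups the within-group deviations of Rbp4 followed the liver list, with r = 0.71 (permutation p = 0.00032, adjusted p = 0.0374 over 117 pairs) and rho = 0.52 (permutation p = 0.00069, adjusted p = 0.0415) in 52 mice. The relation held without the 2 mice farthest out in Rbp4 (r = 0.56) and within the batches (r = 0.91, 0.88, 0.49, 0.62 and 0.39). It was not confined to the liver list. The heart muscle list passed with Rbp4 too by r (0.51, permutation p = 0.00109, adjusted p = 0.0425). Its rho was 0.41 (permutation p = 0.00693, adjusted p = 0.116), and its r within batches was 0.70, 0.74, 0.35, 0.55 and -0.23. Stra6, the retinol receptor, was nearly flat, at 4.25 to 4.87 in LRD and 4.18 to 4.72 in AIN mice, with a difference of 0.08 (-0.04 to 0.19).

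Lrat, the enzyme of retinyl ester storage, came nearest to a diet difference among the remaining genes. The LRD mice ran from 8.76 to 10.32 with a median of 9.45, and the AIN mice from 7.48 to 9.75 with a median of 9.21, so the ranges overlapped. The difference was 0.49 ± 0.19 (SE, 95% interval 0.10 to 0.87, unadjusted p = 0.0138, limma adjusted p = 1), and the second probe set gave 0.51 (0.12 to 0.90). It was 0.44 in controls, 0.22 in the food groups and 0.88 and 0.41 in the water groups at 10 and 100 ppb, and it was above 0 in all 5 batches (0.31, 0.81, 0.25, 0.74 and 0.47). Without the arrays with markers of other tissues it was 0.31 (unadjusted p = 0.137, limma). In controls the LRD mice were close together (9.52, 9.43, 9.57 and 9.48), and the AIN mice spread over 9.21, 9.25, 8.15, 8.96 and 9.75.

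The genes that make and remove retinoic acid differed less, or less evenly, between diets. Aldh1a1, near the top of every array (13.08 ± 0.18 in 17 AIN and 13.06 ± 0.08 in 16 LRD mice), differed by -0.02 (-0.12 to 0.07), and Dhrs3 by -0.03 (-0.14 to 0.08), so that for both a difference beyond 0.14 in either direction lay outside the interval. Cyp26b1, the retinoic acid hydroxylase, gave -0.42, but its interval ran from -1.07 to 0.22, and the sign changed among batches (-0.94, -0.76, -0.39, 1.28 and -0.52). Rarb gave 0.26 (-0.04 to 0.56). Crabp1 gave 0.13 (-0.02 to 0.29) at levels of 2.66 to 3.76, the bottom of the scale, where it ranked no higher than the 42.5th percentile of its array.

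**Figure D3:**
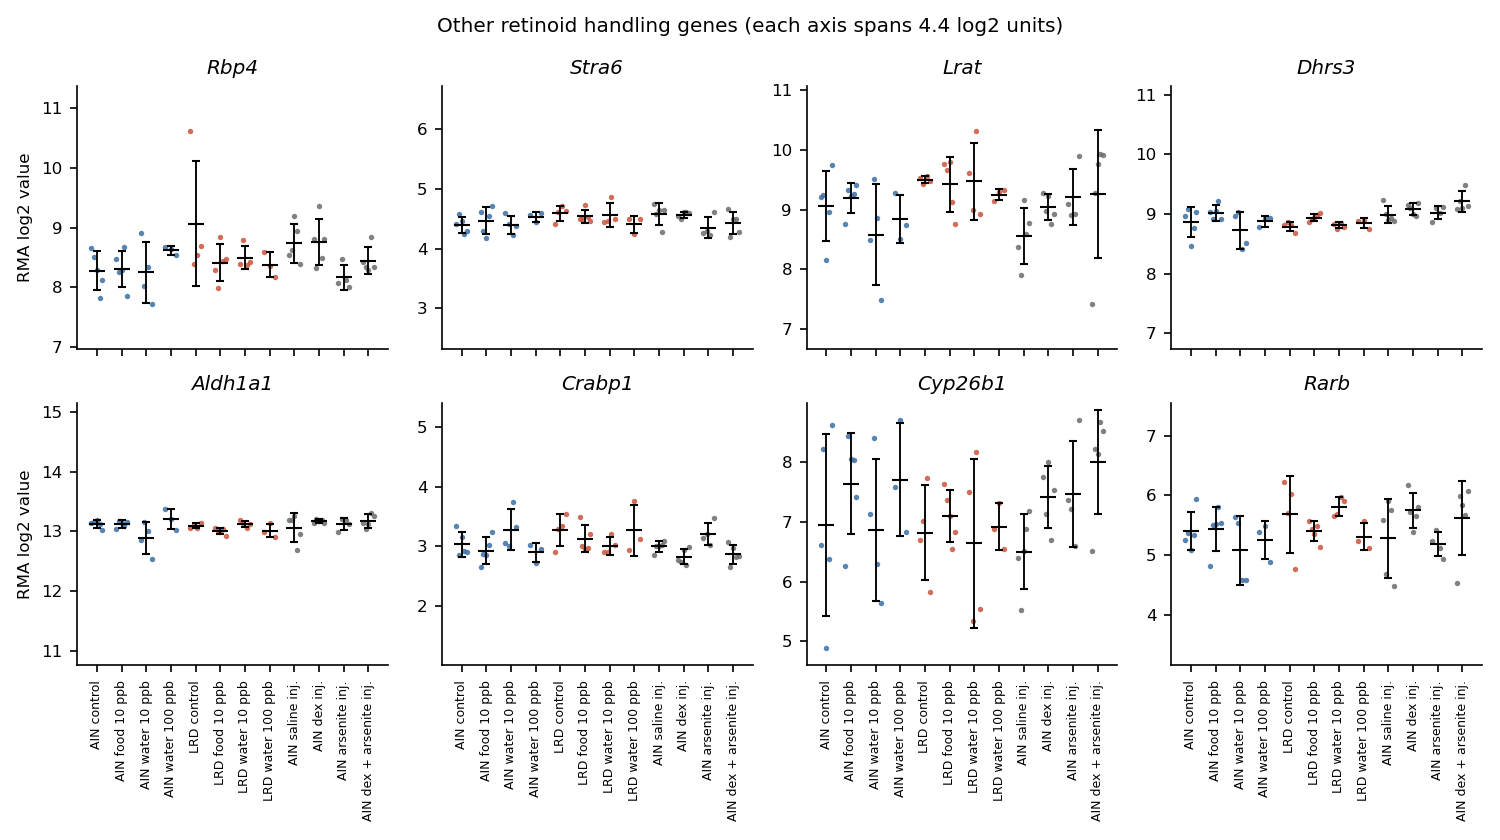
Log2 values (RMA) of the 8 genes other than Rbp7 for each mouse in the 12 groups, with group means and SDs as bars, all axes spanning the same length. Cyp26b1 spreads from 4.88 to 8.71 and Lrat from 7.42 to 10.32, and the single Rbp4 point at 10.62 is LRD control replicate A.

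What set Cyp26b1 and Lrat apart was their spread among mice treated alike. Cyp26b1 measured 6.61, 8.23, 4.88, 6.38 and 8.63 in the 5 AIN controls, and its within-group SD of 0.94 was above that of 99.5% of all probe sets (median 0.20). Lrat had 0.56 (97.6th percentile), Rarb 0.43 (93.9th), Rbp4 0.41 (92.9th) and Rbp7 0.34 (86.6th). Crabp1 (0.22), Stra6 (0.16), Dhrs3 (0.15) and Aldh1a1 (0.13, 7.7th percentile) varied about as little as most probe sets or less.

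This spread was shared. Deviations from the group mean of Cyp26b1 and Lrat, a gene that removes retinoic acid and one that stores its precursor, had Pearson r = 0.74 and Spearman rho = 0.70 over 52 mice (each permutation p = 1e-05, the smallest the 100000 resamples within groups can give, adjusted p = 0.00036 over 36 pairs of genes). The AIN control with the lowest Cyp26b1 (4.88) also had the lowest Lrat of its group (8.15), and the one with the highest Cyp26b1 (8.63) had the highest Lrat (9.75). Within the 5 batches r was 0.63, 0.62, 0.68, 0.87 and 0.88. Leaving out the 2 mice farthest out in either gene left 0.71 and 0.73. It was 0.74 in the 33 chronic and 0.85 in the 19 injected mice, 0.50 with the second Lrat probe set, and 0.74 without the arrays with markers of other tissues.

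Rarb, the receptor gene whose window holds the direct repeat shown above, varied with both. Its r was 0.53 with Cyp26b1 (permutation p = 0.00022, adjusted p = 0.00396, and rho = 0.50, permutation p = 0.0006, adjusted p = 0.0108) and 0.52 with Lrat (permutation p = 0.00263, adjusted p = 0.0237, but rho = 0.36, permutation p = 0.0202, adjusted p = 0.165). Dhrs3 varied with Cyp26b1 at r = 0.53 (permutation p = 0.00215, adjusted p = 0.0237, and rho = 0.44, permutation p = 0.00531, adjusted p = 0.0637) although it moved over a much narrower range. Within the batches these correlations lay between 0.37 and 0.85 for Cyp26b1 and Rarb, 0.35 and 0.78 for Rarb and Lrat, and 0.44 and 0.81 for Cyp26b1 and Dhrs3. Without the 2 mice farthest out in the first or the second gene they were 0.49 and 0.45, 0.41 and 0.34, and 0.42 and 0.44 in the same order. In the 19 injected mice alone r was 0.35 (permutation p = 0.177), 0.58 (permutation p = 0.0658) and 0.25 (permutation p = 0.374), unadjusted. None of the 8 pairs of Rbp7 with another of the genes passed (r from -0.19 to 0.14, lowest unadjusted permutation p 0.355). No list of cell markers passed with Cyp26b1, Lrat, Rarb or Dhrs3 after adjustment over 117 pairs. Nearest by r was Rarb with the neutrophil list (r = -0.42, permutation p = 0.00633, adjusted p = 0.106). Lrat had r = 0.44 with the lipofibroblast and fibroblast list (permutation p = 0.0458, adjusted p = 0.298), but rho = 0.10.

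**Figure D4:**
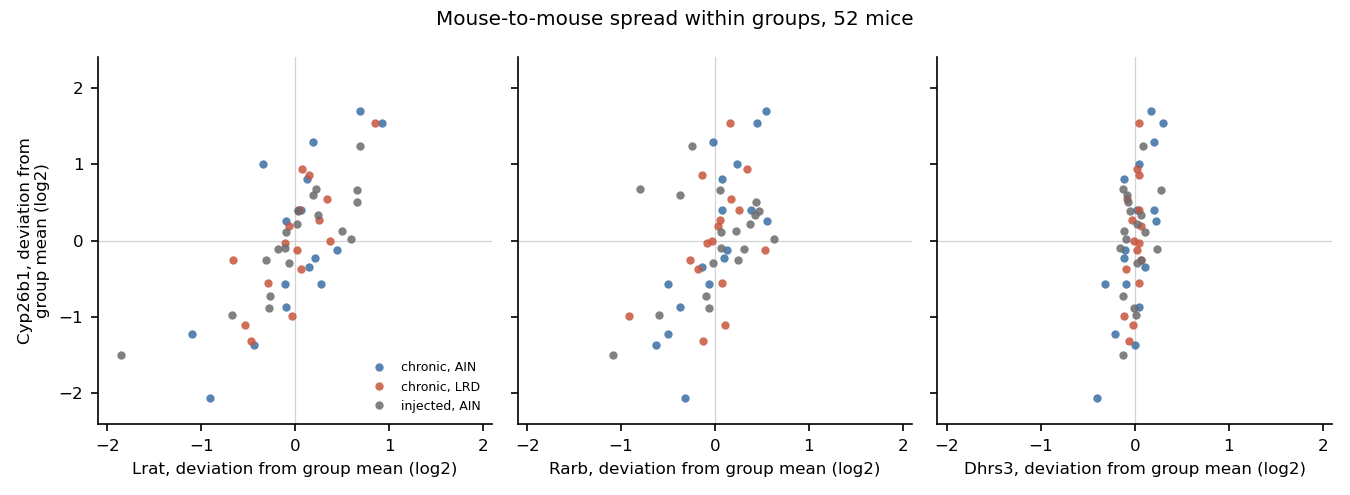
Deviation of Cyp26b1 from its group mean (log2, vertical) against that of Lrat, Rarb and Dhrs3 (log2, horizontal) for the 52 mice, coloured by diet and kind of treatment. Mice low in Cyp26b1 were low in Lrat (r = 0.74) and Rarb (r = 0.53), and Dhrs3 followed within a narrow range (r = 0.53).

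Arsenite given chronically moved none of the 9 genes past the threshold, in either diet, and in none of the 6 comparisons with the control of the same diet did any probe set pass (0%). By limma the probe sets at an unadjusted p under 0.05 numbered 6196 (10 ppb water), 936 (100 ppb water) and 1029 (10 ppb food) on AIN, and 1554, 1461 and 1126 on LRD. With 10 ppb in water on AIN, Rbp7 differed from control by 0.49 (limma, unadjusted p = 0.032, adjusted p = 0.314), and Aldh1a1 by -0.24 (unadjusted p = 0.0115, adjusted p = 0.236). Without the arrays with markers of other tissues these differences were 0.18 and -0.04. Aldh1a1 measured 12.85, 13.15, 13.0 and 12.53 there, against 13.02 to 13.18 in controls, and the lowest mouse is the one with the thymus list at 9.79. The count of probe sets turned on 1 array. Without AIN 10 ppb water replicate C, 2945 probe sets passed and Aldh1a1 was among them, at -0.33 (limma, adjusted p = 0.0273). Replicate C had the highest Aldh1a1 of its group (13.15) and no list of another tissue above 7. The mice then left were replicate D and replicates A (skeletal muscle 10.1, adipocyte 8.73) and E (thymus 9.79). Replicates A and E are also in the group behind the 6196, and their part in these counts was not tested.

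On LRD, the Rbp4 differences from control were -0.57, -0.69 and -0.66 on the log2 scale with 10 ppb in water, 100 ppb in water and 10 ppb in food, none past the threshold (each adjusted p = 1). These comparisons share their control mice, and without LRD control replicate A the values were -0.05, -0.17 and -0.14. Cyp26b1 on AIN was 0.76 above control with 100 ppb in water and 0.70 with 10 ppb in food, with an SE of 0.65 and 0.57 and an adjusted p of 1 for each (limma). Leaving out 1 mouse at a time gave 0.25 to 1.2 and 0.18 to 1.12, the lowest in each without AIN control replicate D (4.88). The difference between diets in the arsenite response was tested for each exposure, and none of the 9 genes passed. No probe set of the whole array passed in these interactions either (0%), so nothing particular to the 9 genes is read from this. The Rbp4 values at 100 ppb (0.34 on AIN, -0.69 on LRD) differed by -1.02 with LRD control replicate A (unadjusted p = 0.0192, adjusted p = 1) and by -0.50 without it.

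After injection, none of the 9 genes passed in any comparison. Dexamethasone against saline moved 515 probe sets (1.14%), both agents against saline 567 (1.26%), and dexamethasone on top of arsenite 687 (1.53%). Arsenite alone against saline, and arsenite on top of dexamethasone, moved 0% (limma, 0 probe sets, with 2811 and 1097 at an unadjusted p under 0.05). Saline injection against uninjected control moved 1 probe set (0.00222%).

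Cyp26b1 had the widest differences. It measured 6.4, 5.53, 6.52, 6.89 and 7.18 after saline, 7.75, 7.13, 8.01, 6.69 and 7.53 after dexamethasone, 7.37, 7.22, 6.6 and 8.71 after arsenite, and 6.51, 8.23, 8.14, 8.67 and 8.52 after both. In the group given both agents, 4 of 5 mice were above every saline mouse, and the fifth lay inside the saline range. Against saline the differences were 0.92 ± 0.57 (SE) for dexamethasone, 0.97 ± 0.60 for arsenite and 1.51 ± 0.57 for both, the last with an unadjusted p of 0.0106 and an adjusted p of 0.255 (limma). An exact two-sided permutation test of the last gave p = 0.0317, unadjusted. The arsenite difference was 0.56 without arsenite replicate F (8.71) and 0.52 with array batch as a block. The 3 comparisons share the saline mice. The interaction of the agents was not past the threshold for any of the 9 genes, nor for any other probe set (0%).

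Lrat followed a like course, at 8.38, 7.9, 9.16, 8.59 and 8.78 after saline and 7.42, 9.28, 9.76, 9.93 and 9.92 after both agents, a difference of 0.70 ± 0.34 (adjusted p = 0.501). Again 4 mice were above every saline mouse, and the remaining one, replicate A, was the lowest Lrat of all 52. The same replicate A was lowest of its group in Cyp26b1 (6.51) and Rarb (4.54, against 5.67 to 6.07 in the other 4). The neutrophil list of replicate A stood at 11.39, against 8.25 to 9.05 in the other 4, and its lipofibroblast and fibroblast list at 9.67, against 9.93 to 10.4, and their part in these values was not tested. Without replicate A the Lrat difference was 1.16 with an adjusted p of 0.0312 (limma), past the threshold, and the Cyp26b1 difference 1.89 with an adjusted p of 0.0999. Replicate A is singled out here by its low values in Lrat, Cyp26b1 and Rarb. Leaving it out had to widen their differences, so their p-values without it are descriptions and not tests. Rarb after both agents differed from saline by 0.34 (limma, unadjusted p = 0.201), by 0.61 without replicate A (unadjusted p = 0.02, adjusted p = 0.301) and by 0.69 without the arrays with markers of other tissues (adjusted p = 0.373), and Dhrs3 by 0.21 (unadjusted p = 0.0372, adjusted p = 0.466).

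Rbp7 after both agents was 3.52, 3.31, 3.08, 2.96 and 3.26, against 3.28, 4.08, 3.92, 4.4 and 3.53 after saline, with overlap. The difference was -0.62 ± 0.21 (unadjusted p = 0.00509, adjusted p = 0.173). The highest saline value (4.4) belongs to replicate E, whose adipocyte list stood at 8.7 and thymus list at 7.84, and without the arrays with markers of other tissues the difference was -0.34. Rbp4 after arsenite alone was 8.08, 8.48, 8.12 and 8.0, against 8.54, 8.63, 9.2, 8.94 and 8.39 after saline, a difference of -0.57 (limma, adjusted p = 0.796), and the highest saline mouse, replicate D, had the liver list at 8.84. The difference was -0.35 without the arrays with markers of other tissues, -0.38 with array batch as a block, and -1.53 with all 55 arrays. Crabp1 was at the bottom of the scale in all injected groups (2.65 to 3.47), and Stra6 and Aldh1a1 had differences from saline between -0.23 and 0.12.

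**Figure D5:**
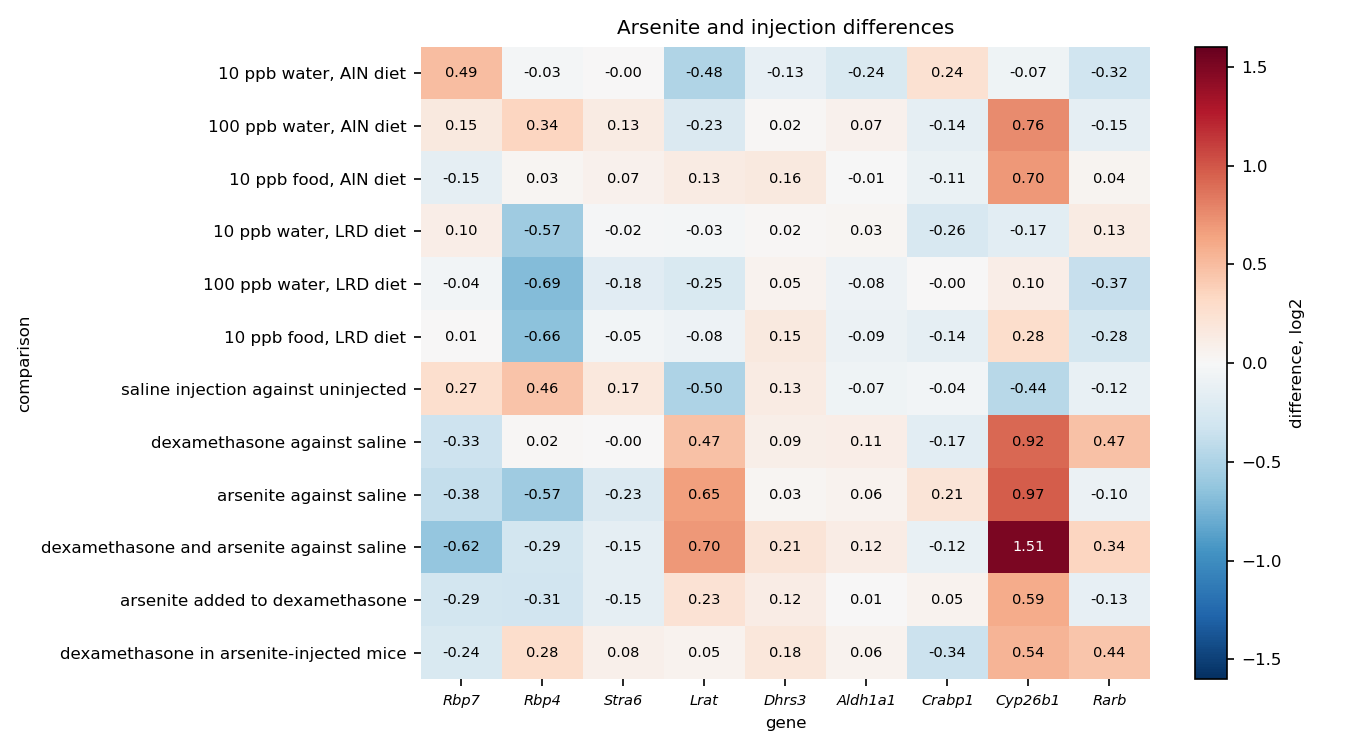
Differences (log2, colour and printed value) of the 9 genes in the 12 arsenite and injection comparisons, each named by what was compared. None passed an adjusted p of 0.05. The strongest colour is Cyp26b1 after dexamethasone and arsenite (1.51), and the 3 negative Rbp4 values on LRD share the control array at 10.62.

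The wider pathway was read through 58 further genes of retinoid binding, retinol and retinal oxidation, retinoic acid degradation, ester formation and hydrolysis, carotenoid uptake, retinoid receptors and retinoic acid induced genes, of which 51 had a probe set of their own. None of the 51 passed between diets, where 27 lay above 0 and 24 below, with a median of 0.01. The widest differences, named after the values were seen, were -0.56 for Lipe, the hormone-sensitive lipase that also hydrolyses retinyl esters (adjusted p = 0.302), and 0.55 for Rdh7, a retinol dehydrogenase (adjusted p = 1). The Rdh7 difference was 1.75 in control mice, and transthyretin (Ttr) gave 0.54 over the chronic mice and 1.87 in controls. The LRD control group holds the array with the liver list at 11.03, whose part in these values was not tested. Against those LRD controls, Rdh7 differed by -1.57, -1.73 and -1.23 and Ttr by -1.86, -1.75 and -1.33 in the 10 ppb water, 100 ppb water and food groups, comparisons that share the control mice (each limma adjusted p = 1). All 5 measured genes of ester formation and hydrolysis among these further genes lay below 0, at -0.56 to -0.04. Lrat, which forms retinyl esters and is not among these 5, lay above 0 in the same comparison, at 0.49. In the control mice alone 2 of the 5 lay above 0 and 3 below (median -0.05). The 5 receptors Rara, Rarg, Rxra, Rxrb and Rxrg lay between -0.09 and 0.03 over the chronic mice. In the chronic arsenite comparisons 0 of 51 passed. After injection 1 of 51 passed, in the comparisons where 1.26% and 1.53% of all probe sets did, so the share of the list was near the background. This was Lpl, lipoprotein lipase, which also frees retinol from esters carried in lipoproteins. It rose by 0.76 with both agents against saline (adjusted p = 0.0349) and by 1.08 with dexamethasone in arsenite-injected mice (adjusted p = 0.00191, limma).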

How the data were processed

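Lungs of 55 mice in 12 groups were measured on Affymetrix whole-genome mouse arrays, 1 array per mouse, from RNA of frozen tissue. The authors deposited log2 values made by RMA, which corrects background, quantile normalizes and summarizes probes; the RMA version and which arrays were normalized together are not given in the sources used here. Column medians ran from 4.25 to 4.371. Replicates are labelled biological. The number of arrays limits the precision.

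Probe sets were named from the platform annotation: 34945 had 1 symbol, 932 several and 9160 none, and 34741 matched RefSeq by Entrez number without a change of symbol. After 64 control probe sets were left out, 45037 were fitted in 1 limma model (limma 3.58.1, R 4.3.3) of 12 groups on 52 arrays without a covariate, with Benjamini-Hochberg adjustment over all probe sets and a threshold of 0.05. The diet comparison averaged the 4 exposures. The 3 arrays were left out by the rule for the genes. The study left out 1 mouse of its 100 ppb group for RNA degradation without naming the replicate. The rank-product test of the study was not run.

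Each gene was read by its probe set with the highest mean. Genes like Rbp7 were the 10 with the highest r among genes with a mean of at least 6. Correlations within groups used deviations from group means and 100000 two-sided permutations within groups (Python 3.11.15, numpy 2.4.6, scipy 1.17.1). Single genes were also tested by exact two-sided permutation. Promoters came from RefSeq (GRCm38.p6). The genes and lists were chosen with earlier results of these data known. On simulated data the fit recovered 100% of 100 probe sets changed by 1 on the log2 scale between diets, 85% for 10 ppb water on AIN and 90% for dexamethasone, with 10, 8 and 12 false calls. The simulated noise was normal and independent, and only probe sets with a mean above 5 were changed. Array batches, arrays with markers of other tissues and dimmer probe sets were thus not covered, and recovery in the real data may be lower. Alternatives were quantile normalization, median centring, a filter on dim probe sets (above 5 on at least 3 arrays), array batch or replicate letter as a block, array weights, fits on only the groups compared, all 55 arrays, other probe sets, and each replicate left out. Leaving out the arrays with markers of other tissues, and the alternatives for correlations, were chosen after seeing the data.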

Additional observations from a re-analysis of the deposited data

Results flagged for a closer look

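Within groups of 4 or 5 mice, 11 values stood apart from the rest by Dixon's criterion in 100 groups of a probe set tested, where chance alone gives about 1 in 20. Replicate A of the mice given dexamethasone and arsenite stood low in Cyp26b1 (6.51, others 8.14 to 8.67), Rarb (4.54, others 5.67 to 6.07) and both Lrat probe sets (7.42, others 9.28 to 9.93, and 4.98, others 7.22 to 7.38). Rbp4 stood high in LRD control replicate A (10.62), in replicate E after dexamethasone and arsenite (8.84), both arrays with liver markers above 7, and in LRD 10 ppb water replicate B (8.79). LRD food replicate D was low in Rbp7 (7.05) and high in Stra6 (4.73). Stra6 was high in LRD 10 ppb water replicate D (4.87), and Lrat was low in AIN food replicate B (8.76).

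With 100 ppb in water, Rbp4 (0.34 on AIN, -0.69 on LRD) and Stra6 (0.13 on AIN, -0.18 on LRD) lay on opposite sides of the control in these diets, and the interaction did not pass for either (limma adjusted p = 1 for Rbp4). Among the arrays set aside, the arsenite-injected replicate E read above all 52 others in Stra6 (7.01) and Rarb (6.50), and LRD 10 ppb water replicate C did so in Rbp7 (8.04).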

How the results depend on the processing

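Of 383 alternative counts of the 9 genes past the threshold in 18 comparisons and interactions, 380 equalled the reported count. With array weights, 2 genes passed after dexamethasone and arsenite (Cyp26b1 and Lrat), where 1414 of all 45037 probe sets did, against 567 in the main fit. Leaving out 1 mouse at a time gave 0 to 1 genes there (287 to 635 probe sets). With 10 ppb water on AIN it gave 0 to 1 genes (0 to 2945 probe sets). Single genes were followed only in the 23 pairs of a gene and a comparison or interaction that passed or had a wide difference in the main fit. Of their 497 values, 488 kept direction and side of the threshold and 7 were newly under 0.05. Some of the 7 are exact permutation tests, which are unadjusted and so did not pass the adjusted threshold. These tests were for Rbp7 and Cyp26b1 after both agents, Rbp4 after arsenite and Cyp26b1 after dexamethasone. Outside these pairs, exact permutation tests gave an unadjusted p of 0.0159 for both Dhrs3 and Aldh1a1 with food on LRD. For Crabp1 they gave 0.0476 after dexamethasone, 0.0476 after arsenite and 0.0317 for dexamethasone in arsenite-injected mice. Among the 497 values, the adjusted threshold was newly passed only after both agents, by Cyp26b1 and Lrat with array weights and by Lrat without replicate A. Aldh1a1 with 10 ppb water on AIN was not among these pairs. Lrat after arsenite was -0.35 with all 55 arrays, and the Rbp4 interaction of diet and 10 ppb water was 0.16 without arrays with markers of other tissues; the cause was not tested. Rbp7 by diet stayed at 3.93 to 4.07 in 39 alternatives. Of 30 alternative correlations 25 stayed past an unadjusted permutation p of 0.05 and 5 did not (injected mice only, or all 55 arrays).

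Replicate letters did not pair the mice (median r of deviations -0.005 for mice of one letter, -0.001 otherwise, 0.283 within an array batch). With the letter as a block the Rbp7 diet difference was 3.98, and no count of the 9 genes changed.

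Probe sets past the threshold numbered 69 between diets, 35 with all 55 arrays; 6 in controls, 2 with only those groups and 21 with array weights; 515 after dexamethasone, 47 with all 55 arrays, 1515 with array weights and 239 without saline replicate F; 567 after both agents, 66, 1414 and 287 likewise; 687 for dexamethasone in arsenite-injected mice, 189 with only those groups, 1185 with array weights and 266 without arsenite replicate C. Saline against uninjected gave 0 to 6. Counts of 0 became 4 with batch as a block and 2945 without replicate C (10 ppb water on AIN), 2 by quantile normalization and 9 without arsenite replicate B (arsenite), and 583 without AIN 10 ppb water replicate C (its interaction with diet).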
